A study of Mus musculus with 10 samples.

Results

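The genes described here encode the protein subunits of the mitochondrial ribosome. They were chosen by symbol alone, as every gene of the deposited expression table whose name reads Mrpl or Mrps followed by a number and at most 1 letter, and 77 of the 21101 genes in the table fit that pattern. The mitochondrial ribosome translates the few proteins that the mitochondrial genome encodes, all of them membrane subunits of the respiratory chain and the ATP synthase. All of its proteins are encoded in the nucleus, made in the cytosol and imported, and they assemble on ribosomal RNA transcribed inside the organelle. Some descend from proteins of the bacterial ribosome and others were added in mitochondria. Neural stem cells are known to lean on glycolysis while they divide and more on respiration as they differentiate into neurons.

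The series measured gene expression by RNA sequencing in mouse neural stem cells grown in culture, to compare Atrx-deleted with control cells in 2 media. Atrx encodes a chromatin remodeller known to place histone H3.3 on repetitive DNA. All lines, the controls included, were p53-null and had been transduced with the mutant isocitrate dehydrogenase IDH1(R132H). The 2 control lines were named Control NSC#1 and NSC#2, and the Atrx deletion was present in the 3 lines named mA16d#4, mA19d#4 and mA19d#7. The names mA19d#4 and mA19d#7 share a stem, and whether these 2 lines have a common origin is not given. Each line gave 1 library from proliferation medium, which held EGF and bFGF at 20 ng/ml, and 1 library after 8 days in differentiation medium, a neural basal medium with B27 and no growth factor. How the deletion was made, and whether a line is 1 clone, is not given in the sources used here. The spread between libraries is therefore the spread between lines, and it may be partly technical.

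Values are given as transcripts per 1e6 transcripts (TPM), which are scaled for gene length, so levels can be compared between genes. When sorted, the values of all 10 libraries are identical, so a change shared by most genes cannot be seen and no depth can be given. Atrx mRNA stood at 126.7 to 162.6 TPM in the control libraries and at 42.8 to 74.0 TPM in the libraries labelled Atrx-deleted, so it was lower but not lost. All 9 neural stem cell markers were detected in every library, at levels from Prom1 (0.937 to 26.0 TPM) and Pax6 (24.6 to 44.0 TPM) to Sox2 (364.3 to 704.8 TPM) and Fabp7 (2628 to 11021 TPM). Markers of neurons, astrocytes and the oligodendrocyte lineage, 8 genes each, summed to 441.9 to 1231, 1612 to 5740 and 1879 to 4844 TPM. The summed markers of microglia, endothelial cells and fibroblasts or mural cells reached at most 11.3, 7.47 and 8.49 TPM. Deviations from the group means correlated at r = -0.194 between the proliferation and differentiation libraries of mA19d#7, over all tested genes. In control lines r was 0.0624. This r is the same for either library of a line, so it cannot tell which library of mA19d#7 is unusual. Member calls and medians that change without the differentiation library of mA19d#7 are given beside the results, a choice that does not follow from r. Sample codes share a prefix within each genotype, so a processing group and the genotype cannot be told apart.

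Of the 77 genes, 50 encode large-subunit proteins, 26 encode small-subunit proteins, and Mrps36 is known today as a component of the 2-oxoglutarate dehydrogenase complex rather than of the ribosome. In the large subunit, 30 genes encode proteins kept from bacteria and 20 encode proteins specific to mitochondria. In the small subunit these numbers were 15 and 11. Mrps18a and Mrps30 were counted with the large subunit, where their proteins sit in spite of their names.

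The promoters of the genes were examined first, because many genes for mitochondrial proteins are known to be driven by the factors NRF1, GABP (an ETS factor) and YY1. RefSeq (GRCm38.p6) gave 74 windows, from 250 bases before to 50 after an annotated start, for 68 of the 77 genes. The ETS core CCGGAAG, searched on both strands, occurred in 33.8% of the members' windows and in 8.86% of all 32851 RefSeq windows. Those windows belong to 27025 genes and were not limited to genes expressed in these cells. The NRF1 motif, GCGC and TGCGC with any single base between them, occurred in 17.6% against 4.6%, the YY1 motif, AAGATGG followed directly by CGG, in 6.76% against 0.852%, and the GC box GGGCGG in 52.7% against 35.7%. The members' windows were also richer in G and C (median 58.5% against 52.67%), with a median of 21 CpG dinucleotides against 7, and the motif letters overlap with that composition. A match is a run of letters and not a measured binding site.

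Windows are printed, 5′ to 3′ on the plus strand, for the 3 members on which the results turn and for which a window was found. They are Mrpl2 at chr17:46645971-46646270, Mrpl53 at chr6:83108858-83109157 and Mrps6 at chr16:92058086-92058385. Capitals mark the ETS core on either strand. The Mrpl53 window holds 2 of these, and the letters of the ETS, NRF1 and YY1 motifs were not found in the Mrpl2 and Mrps6 windows. GC boxes are not marked.
Mrpl2: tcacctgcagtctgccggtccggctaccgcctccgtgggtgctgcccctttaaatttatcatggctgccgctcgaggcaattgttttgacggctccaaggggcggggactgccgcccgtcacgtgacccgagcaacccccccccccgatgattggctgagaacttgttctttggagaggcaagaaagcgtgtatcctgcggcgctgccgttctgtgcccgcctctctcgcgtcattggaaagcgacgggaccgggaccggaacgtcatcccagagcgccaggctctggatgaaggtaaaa
Mrpl53: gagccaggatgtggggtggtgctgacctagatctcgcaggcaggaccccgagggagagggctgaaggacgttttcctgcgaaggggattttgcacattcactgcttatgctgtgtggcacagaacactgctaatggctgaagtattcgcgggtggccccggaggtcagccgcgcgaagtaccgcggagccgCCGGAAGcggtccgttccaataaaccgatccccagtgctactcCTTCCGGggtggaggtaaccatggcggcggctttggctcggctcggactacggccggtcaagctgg
Mrps6: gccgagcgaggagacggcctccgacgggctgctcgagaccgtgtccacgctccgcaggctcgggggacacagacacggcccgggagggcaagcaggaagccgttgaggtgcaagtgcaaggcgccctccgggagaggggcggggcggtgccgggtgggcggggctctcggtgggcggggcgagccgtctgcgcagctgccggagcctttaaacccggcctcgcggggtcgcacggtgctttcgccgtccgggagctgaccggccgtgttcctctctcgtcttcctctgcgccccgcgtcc

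The mitochondrial ribosomal protein genes were expressed in every library at a moderate level that varied little. Each of the 77 passed the filter of at least 1 TPM in at least 2 libraries, and 74 had at least 10 TPM in every library. Their median level lay between 57.8 and 75.3 TPM per library. On the log2(TPM + 1) scale, the median standard deviation (SD) of a member over the 10 libraries was 0.27, against 0.42 for all 15660 tested genes. The same median was 0.47 for the genes of cytosolic ribosomal proteins and 0.31 for nuclear genes of the respiratory chain. None of these sets was matched to the members for level. In 47 members the highest library was under 2 times the lowest, in 19 it was 2 to 3 times, and in 11 it was at least 3 times.

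**Figure D1:**
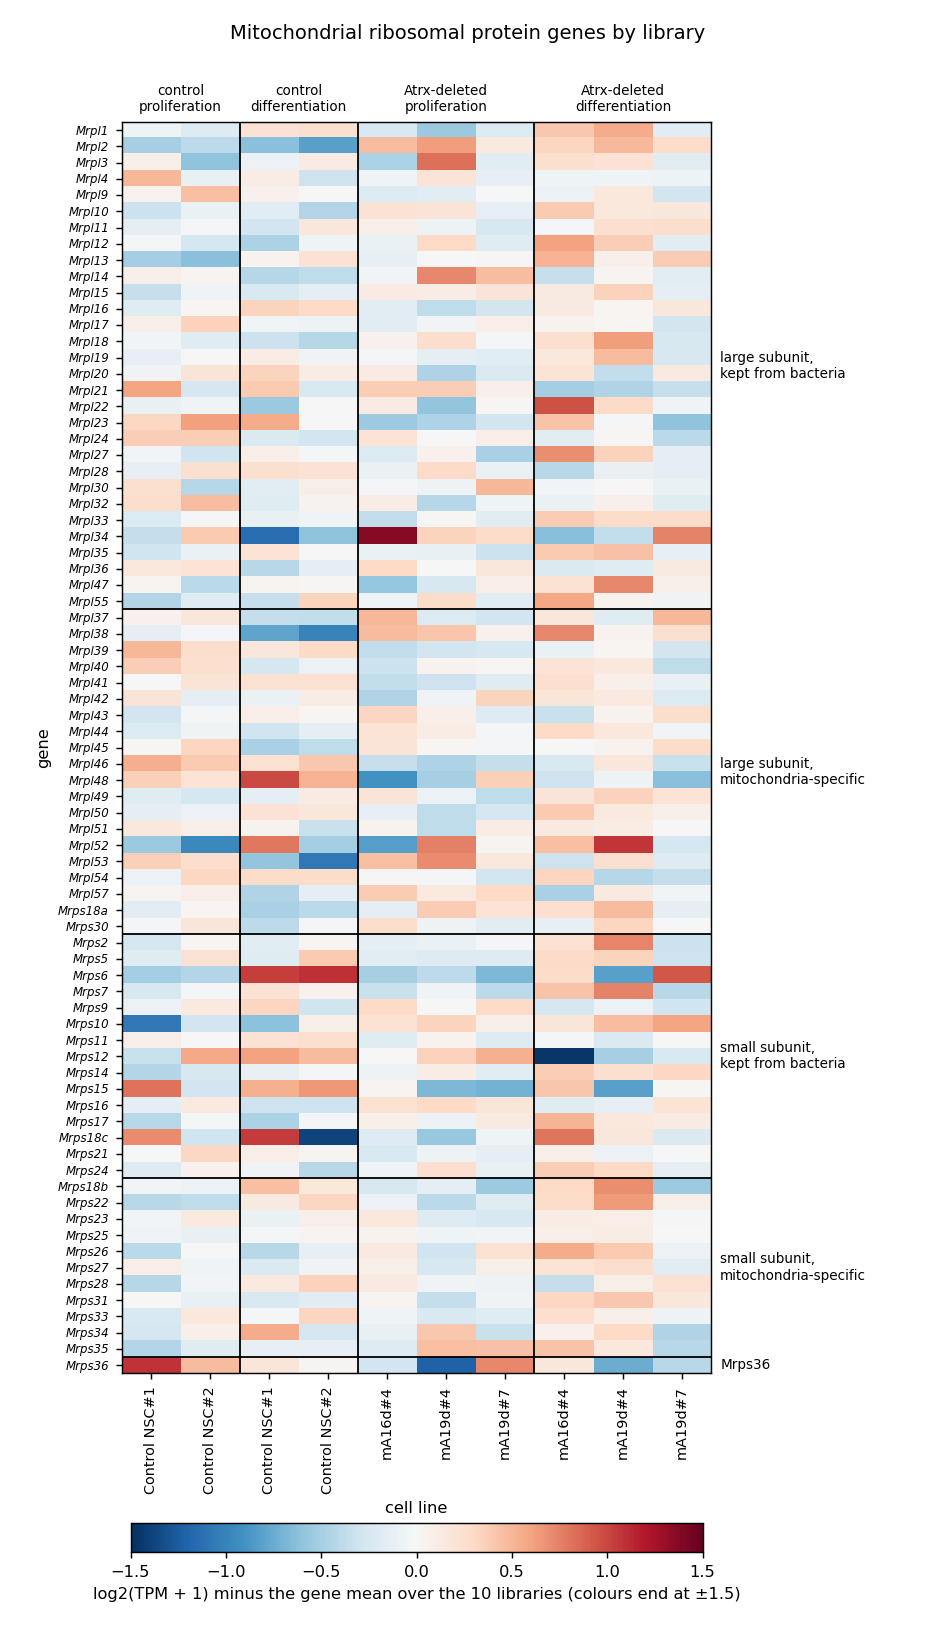
Levels of the 77 members by library, as log2(TPM + 1) minus the mean of the gene over the 10 libraries. Columns are libraries named by cell line and grouped by genotype and medium, rows are genes grouped by subunit, red is above and blue below the gene's mean, and most rows are pale.

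The most constant member was Mrps25, a mitochondria-specific protein of the small subunit, at 65.8 to 77.0 TPM. Mrps23 and Mrps21, also of the small subunit, followed with SDs of 0.14 and 0.15. The most abundant members were Mrps6 (mean 263.8 TPM over the 10 libraries), Mrpl28 (184.3 TPM) and Mrpl33 (182.4 TPM). The first place of Mrps6 comes from differentiation medium. In proliferation medium Mrpl28 was above Mrps6 in every line, with means of 191.3 against 165.8 TPM in control and 187.5 against 161.2 TPM in Atrx-deleted lines. The libraries of Mrpl28 (136.1 to 222.6 TPM) and Mrpl33 (139.3 to 234.4 TPM) overlap, so their order is not set by these data. The least abundant were Mrpl23, at the exit of the peptide tunnel, with a mean of 7.03 TPM, Mrpl1 with 16.5 TPM and Mrps18c with 18.6 TPM.

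In these bulk samples fewer cells of a type and less RNA per cell cannot be told apart. Summed over all 77 genes, expression ranged from 5530 to 6499 TPM, a 1.18-fold range. The group means were 5671 ± 200 TPM (SD, n = 2) for control lines in proliferation medium and 5879 ± 6.48 TPM (n = 2) for control lines in differentiation medium. In Atrx-deleted lines they were 5786 ± 189 TPM (n = 3) and 6245 ± 329 TPM (n = 3). The markers of cycling cells, measured the same way, went from 769.8 ± 260.2 to 102.4 ± 1.16 TPM between the media in control lines and from 747.7 ± 158.1 to 472.5 ± 193.3 TPM in Atrx-deleted lines. All 8 of these markers passed the test as lower in differentiated control lines. Astrocyte markers went from 1771 ± 225 to 3423 ± 42.7 TPM in control lines, where Slc1a2 and Slc1a3 were called higher, and from 2222 ± 125 to 4319 ± 1428 TPM in Atrx-deleted lines. Not all of them rose: of the 7 tested, 4 were higher in control lines (median difference 0.05) and 5 in Atrx-deleted lines (0.91). Neural stem cell markers summed to 10691 ± 534 and then 13425 ± 140 TPM in control lines. Of the 9, 4 were higher after differentiation, the median difference was -0.07, and only Nes was called, as lower. Neuron markers ranged from 441.9 TPM in mA19d#7 to 1231 TPM in mA16d#4 among differentiated Atrx-deleted lines, and oligodendrocyte lineage markers from 1879 TPM in mA19d#7 to 4844 TPM in mA19d#4. The part of these cell type markers in the members' differences was not tested. The sum of the cytosolic ribosomal protein genes covered a 2.14-fold range, from 34652 to 74277 TPM, and that of nuclear respiratory chain genes a 1.26-fold range, from 18532 to 23258 TPM.

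The small subunit sum was higher in differentiation medium in both genotypes, and a single gene made up most of that difference in control lines. It was 1809 ± 169 and 2233 ± 2.11 TPM in control lines, and 1833 ± 44.4 and 2117 ± 78.0 TPM in Atrx-deleted lines, with no overlap between the media. Without Mrps6, the control sums were 1643 ± 163 and 1748 ± 17.3 TPM and the Atrx-deleted sums 1672 ± 29.9 and 1833 ± 189 TPM, and the media overlapped in both genotypes. The large subunit sum was 3825 ± 42.4 and 3623 ± 2.71 TPM in control lines and 3932 ± 158 and 4110 ± 269 TPM in Atrx-deleted lines. The ratio of the large to the small sum was 1.62 in both differentiated control lines and 1.85 to 2.25 in the other 8 libraries. Leaving out Mrps6 brought all 10 ratios to between 2.06 and 2.48. The differentiated control lines still had the lowest ratios, at 2.06 and 2.09, and the other 8 libraries lay at 2.18 to 2.48.

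**Figure D2:**
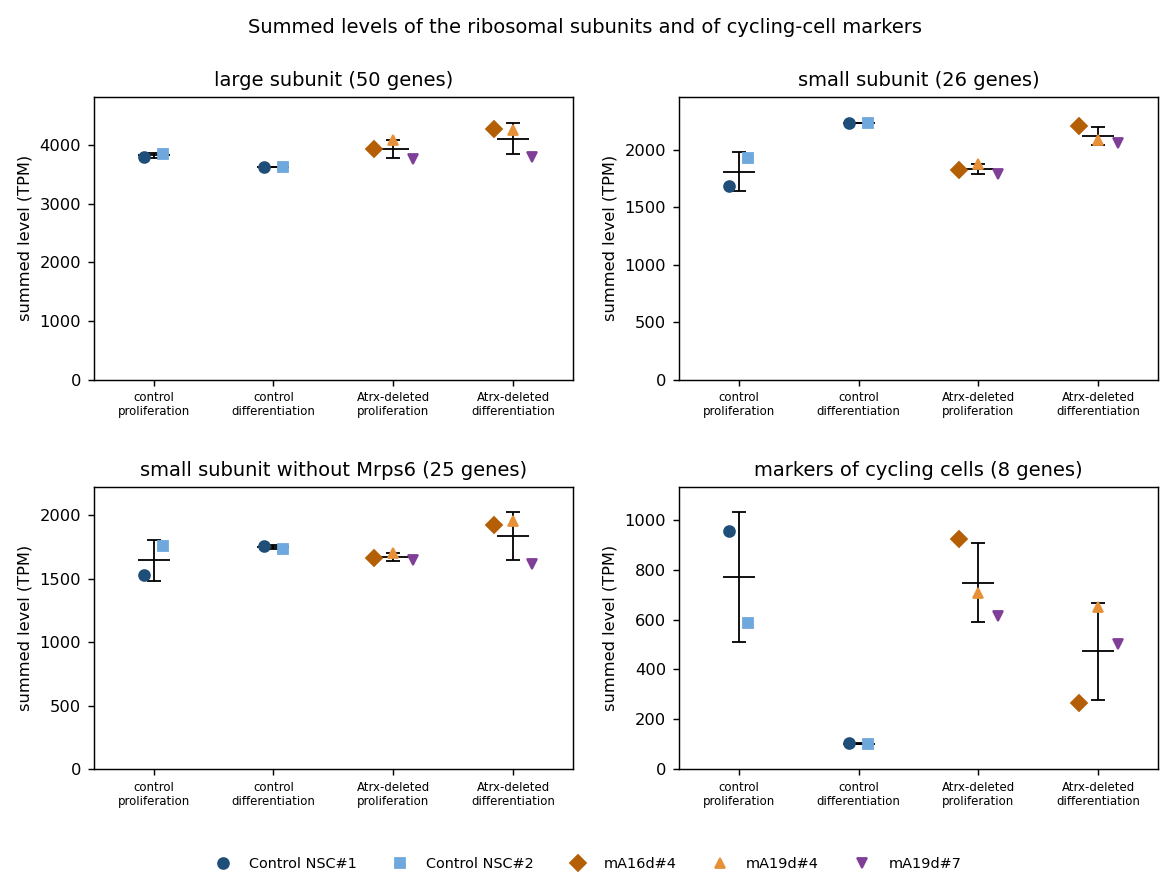
Summed levels (TPM) of the large subunit, the small subunit, the small subunit without Mrps6, and 8 markers of cycling cells, in each group. Points are libraries, and bars are the mean ± SD of 2 or 3 libraries. The small-subunit sums are higher in differentiation medium, less so without Mrps6, and the cycling markers of differentiated control lines are lowest, near 102 TPM.

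Atrx-deleted and control lines in proliferation medium were compared to ask whether the deletion alone shifts these genes. The median difference of the members was -0.04 on the log2 scale, against -0.02 for all tested genes, and 36 of 77 were higher. No member passed the test (limma, Benjamini-Hochberg adjusted over all tested genes, threshold 0.05), where 0.46% of all tested genes did. At an unadjusted p below 0.05 there were 7 members (9.09%), where the share of all tested genes was 13.7%. The libraries of the genotypes did not overlap for 11 members that were higher and 11 that were lower, 14.3% each, where the shares of all tested genes were 17.8% and 20.2%. Without the differentiation library of mA19d#7, which enters only the shared spread, Mrpl2 was called as higher and Mrpl46 as lower, and without that of mA19d#4 Mrpl46 was called.

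After differentiation the members leaned slightly to the Atrx-deleted lines. Their median difference was 0.13, against 0.02 for all tested genes, and 50 of 77 were higher. Of these, 2 passed the test, Mrpl2 and Mrpl38, and no member passed as lower, where 2.89% of all tested genes were called (1.55% higher and 1.33% lower). At an unadjusted p below 0.05 there were 19 members, 24.7%, against 20.2% of all tested genes. The libraries did not overlap for 19 members that were higher (24.7%, against 18.2% of all tested genes) and for 10 that were lower (13.0%, against 18.1%). The median was 0.18 over the 50 large-subunit genes, 35 of them higher, and 0.09 over the 26 small-subunit genes, 15 of them higher. Of the 8 markers of cycling cells, 7 passed the test as higher in Atrx-deleted lines in this comparison. Rbfox3, a neuron marker, and Pdgfra, of the oligodendrocyte lineage, passed as lower. The part of these markers in the members' differences was not tested. The median rested on few libraries: it was 0.03 without the differentiation library of mA19d#4, close to that of all tested genes, and 0.06 without that of mA16d#4. Without the differentiation library of mA19d#7 it was 0.22 and 6 members were called: Mrpl2, Mrpl38, Mrpl18 and Mrps18a as higher, and Mrps12 and Mrps6 as lower. No member was called when either differentiated control library was left out, and in a fit of these 2 groups alone none was called and only 2 of all genes were.

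**Figure D3:**
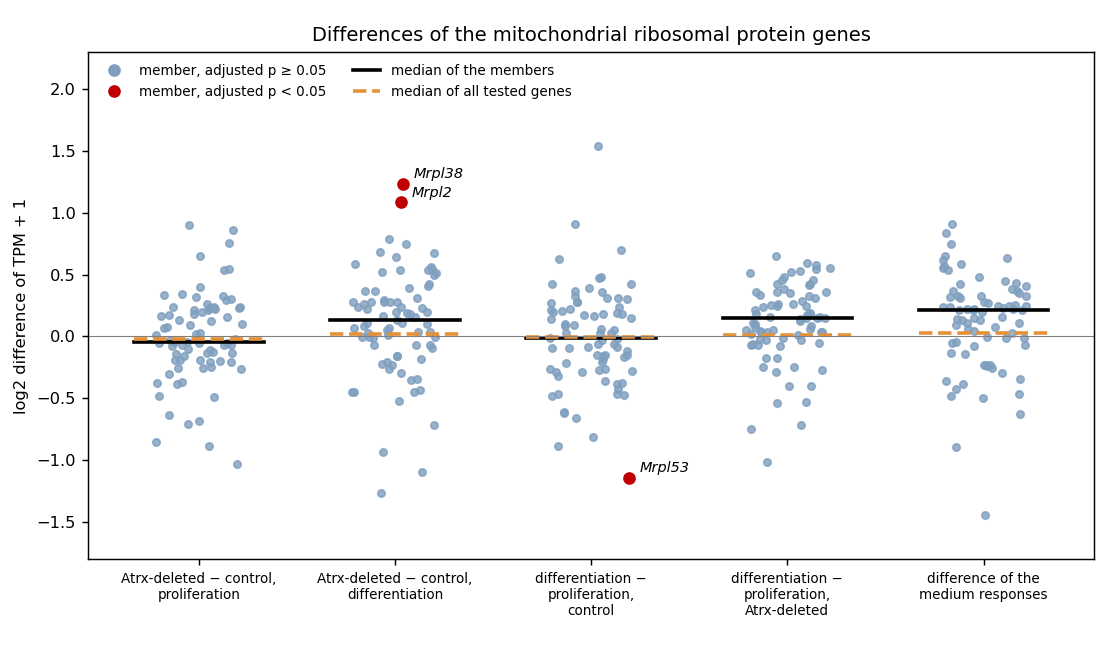
Differences of log2(TPM + 1) for each member (points) in the 5 comparisons. The last column is the medium response of Atrx-deleted lines minus that of control lines. Red points passed the test (Mrpl2, Mrpl38 and Mrpl53), black bars are medians of the 77 members, dashed bars those of all tested genes, and the sideways spread of points is for display.

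Mrpl2 encodes the counterpart of bacterial L2, a protein kept in all ribosomes next to the peptidyl transferase centre. The gene lies at chr17:46646229-46650139 on the plus strand (GENCODE M21, GRCm38), and its promoter is the first of those printed. In proliferation medium it stood at 36.9 and 39.8 TPM in Control NSC#1 and Control NSC#2, and at 73.0 TPM in mA16d#4, 82.0 TPM in mA19d#4 and 58.5 TPM in mA19d#7. In differentiation medium the control lines gave 33.6 and 29.5 TPM and the Atrx-deleted lines 65.9, 74.3 and 63.8 TPM in the same order. Every Atrx-deleted library lay above every control library in both media. The difference was 0.86 on the log2 scale (standard error, SE, 0.18, adjusted p = 0.0788) in proliferation medium and 1.08 (SE 0.18, adjusted p = 0.0179), a 2.12-fold difference, in differentiation medium. Klc4, which starts 207 bases away on the other strand, had 39.7 ± 6.23 and 50.4 ± 13.3 TPM in proliferation medium and 38.1 ± 5.25 and 35.8 ± 7.92 TPM in differentiation medium, in control and Atrx-deleted lines. The 48 tested genes within 1 Mb of Mrpl2 had median differences of 0.49 and 0.34 between the genotypes in the 2 media, above the medians of all tested genes, and the part of this stretch in the result was not tested. Mrps18a and Mrps10, nearby on chromosome 17, had neighbour medians of 0.49 and 0.34, and 0.49 and 0.21.

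Mrpl38 encodes a mitochondria-specific protein of the central protuberance, the part of the large subunit that faces the small one. It is at chr11:116131817-116138868. The control lines had 42.0 and 45.8 TPM in proliferation medium and 26.4 and 22.7 TPM in differentiation medium. The Atrx-deleted lines had 64.8, 62.1 and 48.5 TPM and then 77.3, 48.3 and 54.9 TPM. The genotypes did not overlap in either medium, and the gap was wider after differentiation, where the control lines were lower. The log2 difference between genotypes was 0.40 (SE 0.22, adjusted p = 0.472) in proliferation medium and 1.23 (SE 0.22, adjusted p = 0.0224), 2.35-fold, in differentiation medium. The change of the gap itself was 0.84 (SE 0.31) and did not pass the test (adjusted p = 0.618). Its 62 tested neighbours within 1 Mb had median differences of 0.09 and 0.12.

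**Figure D4:**
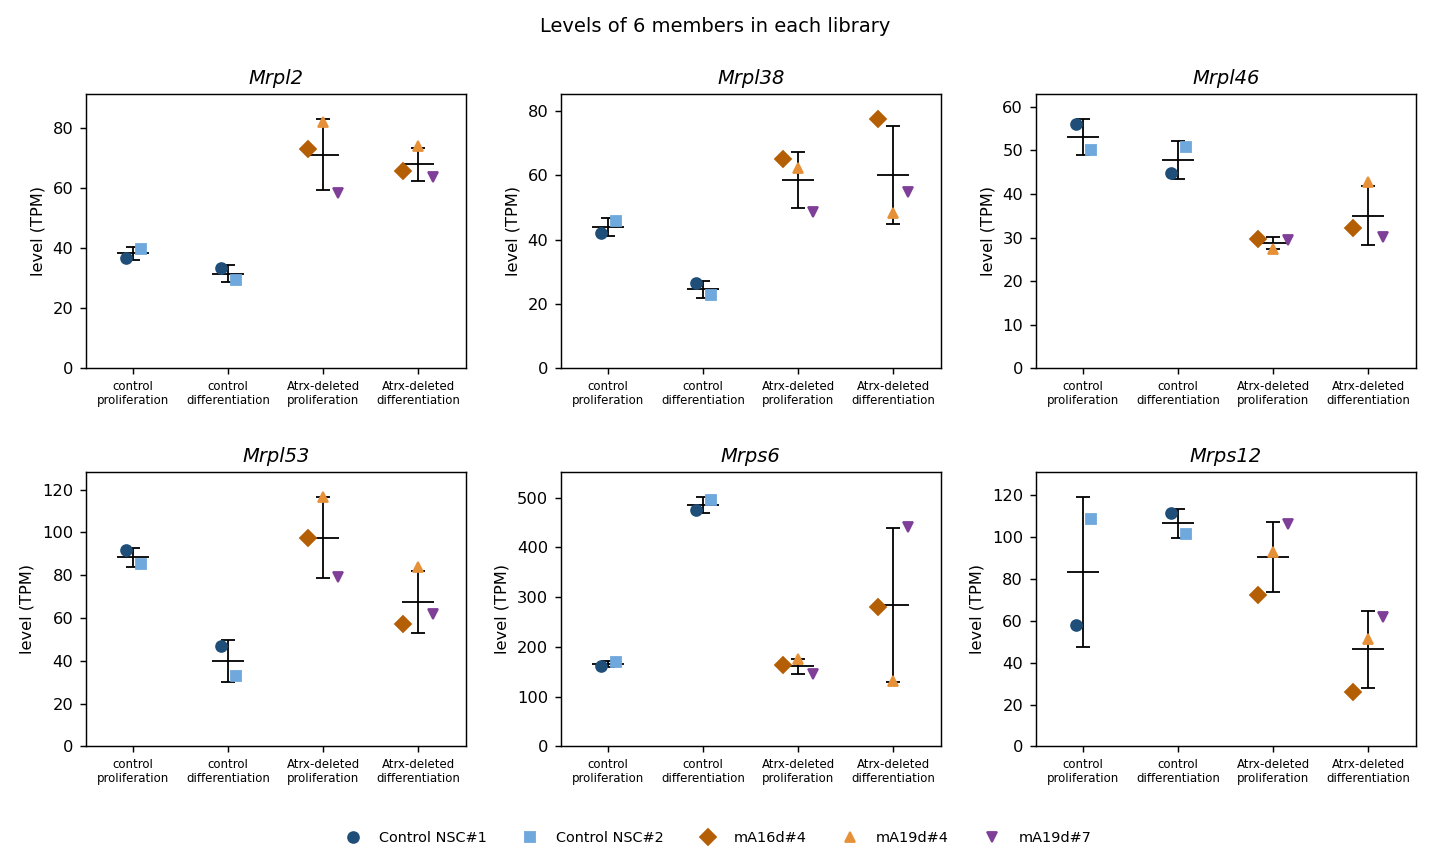
Levels (TPM) of 6 members in each library. Points are libraries, with 1 symbol per cell line, and bars are the mean ± SD of the 2 or 3 libraries of a group. Mrpl2 is higher and Mrpl46 lower in all Atrx-deleted libraries, Mrpl53 and Mrpl38 are lowest in differentiated control lines, and Mrps6 is highest there.

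Separation of the genotypes in both media, in the same direction, was seen in 9 members (11.7%), where the share of all tested genes was 14.0%. Mrpl2, Mrpl18, Mrpl38, Mrpl44, Mrps10, Mrps14 and Mrps16 were higher in all Atrx-deleted libraries than in the control libraries of the same medium. Mrpl39 and Mrpl46 were lower on the same terms. Mrpl46, another protein of the central protuberance, stood at 55.9 and 50.2 TPM in proliferating control lines and at 29.7, 27.3 and 29.5 TPM in the Atrx-deleted ones. After differentiation it stood at 44.7 and 50.8 TPM, and at 32.3, 42.8 and 30.1 TPM. Its difference was -0.86 (SE 0.19, adjusted p = 0.0921) in proliferation medium and -0.45 (SE 0.19) in differentiation medium. It overlaps Mrps11, another member, on the other strand, whose differences were -0.16 and -0.30. Mrpl39, related to threonyl-tRNA synthetase, had 25.6 ± 3.03 and 15.6 ± 0.79 TPM in proliferating control and Atrx-deleted lines, and 23.0 ± 1.46 and 17.8 ± 1.95 TPM after differentiation.

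Mrps10 had 16.1 and 28.4 TPM in proliferating control lines against 41.1, 44.5 and 37.4 TPM in Atrx-deleted lines, the largest positive difference of a member in that medium (0.90, SE 0.28, adjusted p = 0.201). After differentiation it had 22.5 and 37.4 TPM against 39.8, 48.6 and 53.3 TPM, where Control NSC#2 lay just below mA16d#4. Mrpl44, which has a ribonuclease III fold and sits near the tunnel exit, had 62.2 ± 4.26 and 73.5 ± 5.61 TPM, and then 58.3 ± 4.43 and 75.7 ± 8.84 TPM. Mrps16, a small-subunit protein kept from bacteria, had 134.6 ± 18.7 and 158.0 ± 6.45 TPM, and then 107.3 ± 0.32 and 131.4 ± 19.8 TPM. None of these 3 genes passed the test in either medium.

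Other members differed between genotypes in 1 medium or in some lines only. Mrps12, which shapes the decoding centre of the small subunit, had 57.8 and 108.5 TPM in proliferating control lines and 72.5, 92.7 and 106.0 TPM in Atrx-deleted ones. After differentiation it had 111.5 and 101.7 TPM in control lines and 26.0, 51.3 and 61.9 TPM in Atrx-deleted lines, which were all lower. That difference was -1.27 (SE 0.36, adjusted p = 0.0891), and it passed without the mA19d#7 differentiation library (-1.52, adjusted p = 0.0412). This was the only alternative in which it passed. Over the libraries left out the difference ranged from -1.52 to -0.91. Sars2, the mitochondrial seryl-tRNA synthetase gene that starts 172 bases from Mrps12 on the other strand, differed by -0.30 (SE 0.42) there.

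Mrpl48, of the central protuberance, had 43.3 and 38.9 TPM and then 67.8 and 48.6 TPM in control lines, and 17.4, 23.4 and 43.2 TPM and then 26.9, 31.7 and 21.3 TPM in Atrx-deleted lines. Its difference after differentiation was -1.10 (SE 0.34, adjusted p = 0.11). Mrpl48 overlaps Rab6a, an abundant gene on the other strand, with 412.4, 363.0, 522.8 and 486.1 TPM in control libraries in the same order, and 169.8, 265.9 and 515.9 TPM and then 257.6, 265.6 and 343.2 TPM in the Atrx-deleted ones. The strand setting of the counting is not given in the sources used here, so reads of the pair cannot be told apart. In all, 23 members overlap a gene of the table on the opposite strand, and 3 overlap one on the same strand.

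In the control lines the media were compared to give the response to differentiation medium without the deletion. The median difference of the members was -0.01, against -0.01 for all tested genes, and 38 of 77 were higher. A single member passed the test, Mrpl53, which fell, where 4.51% of all tested genes were called (2.56% as lower). At an unadjusted p below 0.05 there were 9 members (11.7%, against 19.9%). The media did not overlap for 20 members that were higher and 20 that were lower, 26.0% each, where the shares of all tested genes were 29.6% and 31.6% (61.3% in all). The medians were -0.09 for the large and 0.14 for the small subunit. Without the mA19d#7 differentiation library, which enters only the shared spread, 5 members were called: Mrps6 and Mrpl13 as higher, and Mrpl53, Mrpl24 and Mrpl45 as lower. Without that of mA19d#4 these were 4, all but Mrpl45.

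Mrpl53 encodes a mitochondria-specific protein at the base of the large-subunit stalk, where translation factors bind, and lies at chr6:83109040-83109939. It fell from 91.6 to 46.8 TPM in Control NSC#1 and from 85.2 to 33.2 TPM in Control NSC#2. In Atrx-deleted lines it went from 97.5, 116.4 and 79.0 TPM to 57.0, 84.0 and 61.8 TPM, so all 5 lines were lower in differentiation medium. The difference was -1.14 (SE 0.25, adjusted p = 0.0338) in control lines, 0.452-fold, and -0.53 (SE 0.21, adjusted p = 0.278) in Atrx-deleted lines, and the 2 responses differed by 0.62 (SE 0.33, adjusted p = 0.767). The call was lost without any one of the 4 control libraries. The other stalk genes did not pass. Mrpl12, whose protein is also known to bind the mitochondrial RNA polymerase, had 138.0 ± 16.0 and 128.0 ± 25.7 TPM in control lines, and Mrpl11 had 25.2 ± 1.41 and 26.0 ± 6.06 TPM.

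Mrps6, which encodes the counterpart of bacterial S6, had the largest difference of any member. It stood at 162.0 and 169.6 TPM in proliferating control lines and at 474.4 and 495.9 TPM after differentiation. In the Atrx-deleted lines it went from 163.4 to 280.5 TPM in mA16d#4, from 175.3 to 130.6 TPM in mA19d#4 and from 144.9 to 441.1 TPM in mA19d#7. The control lines thus behaved alike and the Atrx-deleted lines did not. The control difference was 1.54 (SE 0.42) and missed the threshold (adjusted p = 0.0677) in the fit that shares 1 spread over all groups. It passed in a fit of the 4 control libraries alone (adjusted p = 0.00963), which was 1 of 10 other settings. With a library left out it passed in 2 of 10 fits, among them that without the mA19d#7 differentiation library (adjusted p = 0.0145). With a line left out it passed in 2 of 5 fits. In the remaining fits it was not called, and over the libraries left out the difference was 1.51 to 1.58. Slc5a3, the inositol transporter gene, overlaps Mrps6 on the same strand, so reads may not be separable and the level of Mrps6 is uncertain. Slc5a3 had 40.8 and 41.4 TPM and then 81.5 and 71.9 TPM in control lines, and 31.3, 33.1 and 37.0 TPM and then 28.2, 20.9 and 98.5 TPM in mA16d#4, mA19d#4 and mA19d#7. The highest and lowest Atrx-deleted library after differentiation was the same for both genes.

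Among the members that were higher in differentiated control lines, Mrpl52 (0.91, SE 0.57, adjusted p = 0.43) followed Mrps6 with a wide spread. Mrpl13, a large-subunit protein kept from bacteria, was at 42.1 ± 2.60 and 69.2 ± 5.32 TPM in control lines (0.70, SE 0.18, adjusted p = 0.0606). Mrps22, a mitochondria-specific small-subunit protein, had 21.6 ± 0.41 and 33.9 ± 3.12 TPM in control lines and 24.7 ± 2.82 and 37.1 ± 7.51 TPM in Atrx-deleted lines, higher in all 5 lines but not past the test in either genotype. Mrpl45, which anchors the ribosome to the inner membrane, had 59.0 ± 8.98 and 38.0 ± 2.05 TPM in control lines and 54.6 ± 4.39 and 56.1 ± 6.11 TPM in Atrx-deleted lines. Mrps18a, Mrps18b and Mrps18c encode 3 relatives of bacterial S18, and their control levels went from 95.8 ± 9.14 to 73.1 ± 2.83 TPM, from 20.4 ± 0.47 to 26.7 ± 4.02 TPM and from 20.6 ± 10.2 to 20.6 ± 21.0 TPM. The last pair hides libraries at 35.5 and 5.73 TPM, so the spread of Mrps18c exceeds any group difference. Mrps30 had 42.9 ± 4.45 and 35.1 ± 6.37 TPM, and Mrpl3 59.5 ± 19.9 and 70.4 ± 7.47 TPM.

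In the Atrx-deleted lines the members were slightly higher in differentiation medium, with a median difference of 0.15 against 0.01 for all tested genes and 55 of 77 above 0. No member passed the test, where 0.083% of all tested genes did (0.0128% as higher). At an unadjusted p below 0.05 there were 15 members (19.5%, against 14.8%). The libraries of the media did not overlap for 10 members that were higher (13.0%, against 8.65% of all tested genes) and 5 that were lower (6.49%, against 7.85%). All 3 lines were higher for 16 members (20.8%, against 17.9%) and all 3 lower for 8 (10.4%, against 15.8%). The median was 0.09 without the mA16d#4 differentiation library and 0.08 without the line mA19d#4. Without the mA19d#7 differentiation library it was 0.20 and Mrps7 was called as higher. Mrpl1 (0.60, SE 0.24) and Mrpl47 (0.58, SE 0.25), both of the large subunit, had the largest positive differences after Mrps6. Mrps12 (-1.02, SE 0.32, adjusted p = 0.201), Mrpl34 (-0.75, SE 0.40) and Mrpl21 (-0.71, SE 0.24) had the largest negative ones.

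The medium responses of the genotypes were compared directly as an interaction. No member passed (0.00639% of all tested genes did), and 4 members (5.19%) had an unadjusted p below 0.05, where 7.02% of all tested genes had one. The median interaction was 0.21, against 0.03 for all tested genes, and 52 of 77 were above 0. This median was 0.11 without the proliferation library of Control NSC#2, 0.12 without the line mA19d#4 and 0.26 without the mA19d#7 differentiation library. The interaction combines the 2 comparisons by genotype and shares their libraries. In 1 member, Mrps31, both control lines moved one way and all 3 Atrx-deleted lines the other, where 4.36% of all tested genes did so. The most negative value was that of Mrps12 (-1.44, SE 0.51, adjusted p = 0.607), and Mrps18c (0.91, SE 0.87), Mrpl38 and Mrpl22 (0.75, SE 0.44) had the largest positive ones. Mrpl22 rests on mA16d#4 and mA19d#4 with group values of 54.7 ± 13.7 and 82.0 ± 30.2 TPM in Atrx-deleted lines, and a wide spread.

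Mrpl34 and Mrpl52, both of the large subunit, had a large spread within groups. Mrpl34, at 66.2 and 111.7 TPM and then 37.9 and 55.7 TPM in control lines, had 221.9, 108.1 and 103.3 TPM and then 54.6, 66.0 and 143.0 TPM in Atrx-deleted lines. Mrpl52 had 45.6 and 34.2 TPM and then 117.9 and 47.4 TPM in control lines, and 37.6, 115.0 and 69.8 TPM and then 92.8, 143.2 and 56.1 TPM in Atrx-deleted lines. In both genes every group overlapped at least 1 other. Mrps36, the dehydrogenase component, went its own way, at 45.3 and 29.4 TPM and then 23.9 and 21.6 TPM in control lines, and at 17.0, 8.47 and 35.0 TPM and then 23.6, 12.1 and 15.4 TPM in Atrx-deleted lines. Its difference between genotypes in proliferation medium, -1.03 (SE 0.48, adjusted p = 0.383), was the most negative of the members there. Mrpl23, the least abundant member, differed by -0.88 (SE 0.36, adjusted p = 0.318).

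The genes that work with the ribosome were tested in the same 5 comparisons, with few calls. Among ribosome proteins whose symbols fall outside the naming rule, 6 genes were tested and none passed in any comparison. Dap3, for a small-subunit protein that binds GTP, had 22.1 to 37.9 TPM, and Ict1, a peptidyl-tRNA hydrolase built into the large subunit, had 37.4 to 105.6 TPM. Of 26 tested genes for ribosome assembly and rRNA modification, only Rbfa, a small-subunit assembly factor, was called. It had 64.0 ± 8.57 TPM in differentiated control lines and 22.1 ± 8.43 TPM in Atrx-deleted ones (-1.55, SE 0.26, adjusted p = 0.0184), in a comparison that called 2.89% of all tested genes. None of 12 translation factors, 17 aminoacyl-tRNA synthetases, 17 genes of mitochondrial transcription, replication and RNA stability or 10 regulators passed in any comparison. Among 28 genes of protein import, Timm50, a receptor of the inner membrane translocase, rose in control lines from 36.4 ± 1.30 to 64.7 ± 6.17 TPM (0.81, SE 0.20, adjusted p = 0.0463), where 4.51% of all tested genes were called. Between the media in Atrx-deleted lines 10 of the 28 import genes (35.7%) had an unadjusted p below 0.05, against 14.8% of all tested genes, and none was called. The summed level of the synthetases covered a 1.82-fold range over the libraries.

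Many members share a start region with a gene on the other strand. A protein-coding gene started on the opposite strand within 1000 bases of the start of 33 of the 77 members (42.9%), where the share was 15.0% (2112 of 14054) among tested protein-coding genes. Of these neighbours, 29 that are not members were tested. Between the media in control lines 2 of them passed the test, both as lower, where 4.51% of all tested genes were called. Between the genotypes after differentiation 1 passed, where the share of all tested genes was 2.89%. In control lines Ncapd2, a condensin subunit needed for mitotic chromosomes, lies 100 bases from the start of Mrpl51 and fell from 84.9 ± 25.3 to 18.4 ± 2.87 TPM between the media (-2.12, SE 0.30, adjusted p = 0.00693). Mrpl51 itself had 74.1 ± 2.69 and 62.2 ± 11.9 TPM (-0.26, SE 0.21). Lrrc46, 153 bases from Mrpl10, fell from 13.1 ± 1.11 to 3.37 ± 0.99 TPM (-1.71, SE 0.35, adjusted p = 0.0263), where the difference of Mrpl10 was -0.09. Ska3, a kinetochore gene 49 bases from Mrpl57, had 20.9 ± 4.69 and 5.38 ± 3.85 TPM (-1.91, SE 0.53, adjusted p = 0.0702), and Mrpl57 had 22.9 ± 0.71 and 17.7 ± 2.86 TPM (-0.36, SE 0.26). The neighbours named so far are those that fell most in control lines. Other pairs had similar differences there, such as Mrps18b and Ppp1r10 (0.37 and 0.38) and Mrpl37 and Cyb5rl (-0.48 and -0.41). Whether members follow their neighbours was not tested. After differentiation Ncapd2 was higher in Atrx-deleted than in control lines (1.79, SE 0.27, adjusted p = 0.0124), where Mrpl51 differed by 0.23.

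**Figure D5:**
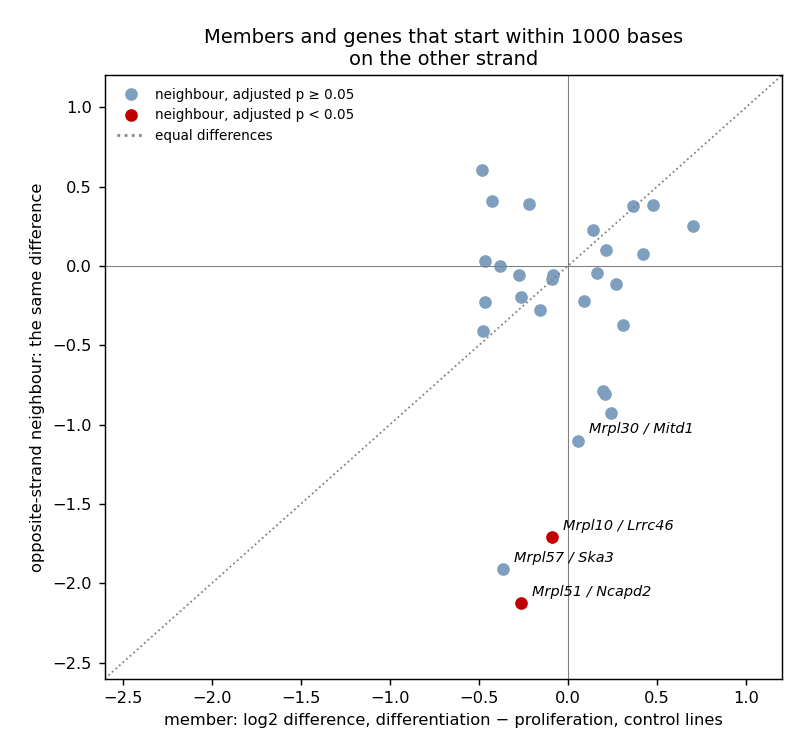
Difference between the media in control lines for members (x axis) and for the gene that starts within 1000 bases on the other strand (y axis), both as log2 differences of TPM + 1. Red points are neighbours that passed the test (Ncapd2 and Lrrc46), and the dotted line marks equal differences. Labels were given to neighbours that passed the test or fell most, so their place far below the line follows from that choice.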

How the data were processed

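The table of 21101 genes and 10 libraries was used as deposited by the authors, whose values are on a log2 scale. Per the submitters' processing notes, STAR and mm10 were used. Which versions, annotation and expression tool were used is not given in the sources used here. All columns hold the same sorted values, which is how quantile-normalised data look. The lowest value was -8, with 1213 genes at it per library, and undoing the logarithm gave a sum of 997524 in each library. The unit was taken from this as log2 TPM. Depth is unknown, so no counting error can be given.

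The planned test had assumed linear TPM, so the logarithm was undone. The model of limma 3.58.1 in R 4.3.3, with a mean-variance trend and tested on simulated data first, was applied to log2(TPM + 1) with 4 group means over all 10 libraries, with 6 residual degrees of freedom. Fold changes on this scale understate changes of low genes. The test, two-sided, covered the 15660 genes that reached 1 TPM in 2 or more libraries, in 5 comparisons, with Benjamini-Hochberg adjustment over all of them and a threshold of 0.05. Members, lists and comparisons were chosen with earlier results of these data known. Members were named if called (at most 10 per comparison), if among the 3 highest or lowest differences, levels or SDs, or from a short list of well-known subunits, which made 33. Mrpl10, Mrpl18, Mrpl24, Mrpl39, Mrpl51, Mrpl57, Mrps7, Mrps11, Mrps14, Mrps31 and others in counts were named after their values were seen. Gene positions are from GENCODE M21 (GRCm38) and promoters from RefSeq (GRCm38.p6).

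Line names pair the libraries of the 2 media. Deviations from the group means correlated between the libraries of a line at 0.0624 in control lines, 0.159 in mA16d#4, 0.404 in mA19d#4 and -0.194 in mA19d#7 over all tested genes. Alternatives were other pseudocounts, filters, variance models, the compared groups alone, median-of-ratios factors, the cell line as a block, and each library or line left out.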

Additional observations from a re-analysis of the deposited data

Results flagged for a closer look

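Mrps31, a mitochondria-specific protein of the small subunit, moved in opposite directions between the media in the 2 genotypes. Its level was lower in differentiation medium in both control lines, at 42.8 and 39.5 TPM and then 36.3 and 37.8 TPM. It was higher in all 3 Atrx-deleted lines, at 44.1, 33.0 and 41.2 TPM and then 53.4, 56.8 and 48.3 TPM. The responses differed by 0.57 on the log2 scale (SE 0.25), which did not pass the test over all tested genes (limma, adjusted p = 0.69). It was the only member of 77 (1.30%) with such a pattern, which 4.36% of all tested genes had.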

How the results depend on the processing

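Member calls rested on few libraries, and the depth behind them is unknown. In proliferation medium (0 members called) the count ranged from 0 to 2 over the libraries left out and was at most 1 over the lines: Mrpl46 passed without the mA19d#4 differentiation library, Mrpl46 and Mrpl2 without that of mA19d#7, and Mrpl2 without the line mA19d#7. After differentiation (2 called) it ranged from 0 to 6 over libraries and from 0 to 4 over lines, and it was 0 with the compared groups fitted alone. For the media in control lines (1 called) it ranged from 0 to 5 over libraries and 0 to 3 over lines. It was 0 with no filter and with limma without trend, and 7 with the compared groups alone (2 higher, 5 lower). For the media in Atrx-deleted lines (0 called) it ranged from 0 to 1, and for the interaction it was 0 throughout. The median difference of the members after differentiation ranged from 0.03 to 0.22 over the libraries left out. Mrpl2 and Mrpl38 kept their direction, at 0.99 to 1.17 and 1.04 to 1.38. With the cell line as a replicate block, which the shared line names allow, 1 member was called for the media in control lines. This was Mrpl53 (limma, adjusted p = 0.0326 as a fixed and 0.0267 as a random block). The counts were 0 for the media in Atrx-deleted lines and 0 for the interaction. Between genotypes only the random block was fitted, and the counts were 0 in proliferation medium and 2 after differentiation. No member call changed in these fits. Over all genes, 72, 452, 706, 13 and 1 were called. These were 2 after differentiation and 2080 for the control media with the compared groups alone, 37 in proliferation medium with no filter and 39 with no pseudocount. For the media in Atrx-deleted lines they were 2 with no filter, 0 with the groups alone and 6 with the fixed block. For the interaction they were 30 with no filter and 0 with a pseudocount of 0.1, with none, with a filter of 5 TPM and with the fixed block. Over the libraries left out they ranged from 0 to 249, 11 to 935, 6 to 1447, 0 to 348 and 0 to 3. The cause of these shifts was not tested.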

Other observations

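Genes of the cytosolic ribosome were taken for comparison. Its 80 tested protein genes had a median difference of 0.47 in proliferation medium and 0.35 in differentiation medium between Atrx-deleted and control lines, with 72 and 66 of them higher. Between the media the medians were -0.54 in control and -0.51 in Atrx-deleted lines, with 13 and 2 of 80 higher. The mitochondrial ribosomal protein genes had medians of -0.04, 0.13, -0.01 and 0.15 in the same order. The 79 tested nuclear genes of the respiratory chain, whose complexes hold the products of the mitochondrial ribosome, had medians of 0.06, -0.00, 0.10 and 0.10. Whether the lists differ was not tested.

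Across the 77 members, the medium response of control lines and that of Atrx-deleted lines had a Pearson correlation of 0.46 (Spearman 0.44), where all 15660 tested genes had 0.47 (0.45). These are descriptions across genes, which are not independent replicates. Among sites of the large subunit, the median difference between genotypes after differentiation was 0.54 over the 5 stalk genes, 0.31 over 7 genes at the polypeptide exit and 0.20 over 7 genes of the central protuberance.

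Regulators of mitochondrial gene expression were expressed throughout, with none called in any comparison. Ppargc1a, a coactivator of mitochondrial biogenesis, had 25.2 to 47.5 TPM, Tfam, which packages and transcribes mitochondrial DNA, had 30.8 to 43.5 TPM, and Polrmt, the mitochondrial RNA polymerase, had 17.5 to 29.9 TPM. Myc, an activator of ribosome genes, ranged from 50.9 to 158.8 TPM, and its highest library was the differentiation library of mA19d#4.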
